A study of Mus musculus with 23 samples.

Results

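Expression in the hippocampus of mice that carried Alzheimer's disease transgenes, lacked 1 copy of Polb and received urolithin A was compared with that of wild-type mice labelled as given vehicle. The 5 treated mice and the 4 wild-type mice made up 9 of the 23 samples of the series and were chosen by their labels. All 9 were 18 months old with the strain given as C57BL6/J, and the labels count each as a separate mouse. The treated mice, called treated ADPolB here, had the genotype 3xTgAD/PolB +/-, with heterozygous Polbtm1Rsky and Tg(APPSwe,tauP301L)1Lfa among its alleles, and received a daily oral gavage of 200 mg/kg urolithin A over 5 months. This group held 3 females and 2 males, against 2 females and 2 males among the wild-type mice, which received vehicle over the same 5 months. The direct comparisons below also use 4 vehicle ADPolB mice of the same genotype (1 female and 3 males) and 5 treated AD mice (2 females and 3 males), which had the same transgenes with no Polb allele named and the same urolithin A dose. The labels and the design text give vehicle for every wild-type sample, whereas the protocol text shared by all samples also counts wild-type mice among those dosed with the compound; the labels were followed. No sample was labelled as a wild-type mouse given urolithin A, so the part of the transgenes and other alleles of the line, of the Polb allele and of the compound in any difference from wild type cannot be told apart.

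Polb encodes DNA polymerase beta, which fills the gap left when a damaged base is cut out during base excision repair. The transgenes express human APP and human tau, each with a mutation of familial disease, from a neuronal Thy1 promoter. The plaques and tangles of the 3xTgAD line come with reactive microglia and astrocytes, which take up lipid and protein debris through the lysosome. Urolithin A, a gut microbial product of the ellagitannins in fruit and nuts, is known for inducing mitophagy, the removal of damaged mitochondria by autophagy. Polb and App were not among the genes measured, so the genotypes were not checked here.

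The assay was an nCounter panel of metabolic pathway genes, in which colour-coded probes bound to RNA are counted without amplification. Levels below are the deposited log2 normalized counts, differences are log2 differences, and mice are given in the order of replicates 1 to 4 (wild type) and 1 to 5 (treated ADPolB). Of 748 genes with values, 619 reached a normalized count of 20 in at least 4 mice and were tested. Total counts inferred from the step between low values were 458773 to 599262 in wild-type mice and 446467, 659372, 246113, 692589 and 186081 in treated ADPolB mice, so that replicates 3 and 5, both female, held the lowest totals of the series. A normalized count of 20 stood for 9.81 and 7.26 counts in those mice and for 16.8 to 29.6 in the others. Wild-type replicate 3 and treated replicate 2 also stood apart from their groups. Choroid plexus genes (Ttr, Folr1 and Slc16a8) summed to 12.73 in wild-type replicate 3, against 5.83, 7.46 and 6.23 in the other wild-type mice. They summed to 6.52 in treated replicate 2, against 13.30, 12.41, 11.79 and 13.66 in the other treated mice.

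No gene passed an adjusted p of 0.05 between treated ADPolB and wild-type mice (0 of 619, 0%, limma with Benjamini-Hochberg adjustment), and the smallest adjusted p was 0.157. At an unadjusted p under 0.05 there were 136 genes (22%), of which 106 were higher (17.1%) and 30 lower (4.85%) in treated ADPolB mice. The 9 mice separated without overlap in 35 genes (5.65%), with treated ADPolB mice higher in 29 (4.68%) and lower in 6 (0.969%). That split moved with the scaling, to 15 higher and 25 lower after centring each mouse on its median, 9 and 21 after quantile normalization, and 22 and 9 after centring on the 4 genes Hprt, Gapdh, Rplp0 and Ywhaz. The 6 lower genes were Asns, Cops6, Gps1, Mcat, Pdk1 and Slc16a7. Among the 29 higher genes were the sterol and fatty acid synthesis genes Srebf1, Fasn and Acaca, the immune genes Cd14, Nfkb1, Nfkb2, Birc3 and Runx1, the lipid carriers Apoe and Fabp5, and Mapt, Trp53, Rest and Hif1a. The fatty acid and sterol synthesis list also held 1 of the 6 lower genes. Estimates were precise enough for the 95% interval to lie within 1 log2 unit of 0 in 444 genes (71.7%), and the median distance from the estimate to either end was 0.34. The SD was larger in treated ADPolB than in wild-type mice in 390 genes (63%).

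The absence of calls did not hold without wild-type replicate 3, without treated replicate 2, or with weights for each mouse. Leaving out any other single mouse of these groups gave 0 calls. Without wild-type replicate 3, 13 genes passed the adjusted threshold, 11 higher and 2 lower, and without treated replicate 2, 10 passed, 5 in each direction. Both fits called 5 genes in common, which were Stat5a, Fgf1, Npr1, Npr2 and Ywhaz. The mice left out were those whose choroid plexus sums stood apart, so without either of them that level followed the groups more closely. Acacb, Lepr, Nqo1 and Sod3 were called without wild-type replicate 3. Their values moved by more than 1.5 times with the Ttr level as a covariate (below), and that of Stat5a moved less. The part of choroid plexus RNA in these calls was not tested. Weighting each mouse by its estimated variability gave 182 calls, 152 higher and 30 lower, and 16 once replicates 3 and 5 were also left out. The weights were 2.94 and 3.22 in wild-type replicates 1 and 2, both male, and 0.57 and 0.71 in replicates 3 and 4, both female. The weighted wild-type mean thus rested mostly on replicates 1 and 2. In treated ADPolB mice the weights were 1.28, 0.67, 1.37, 0.65 and 0.52, with the highest in the low-depth replicate 3. Without replicates 3 and 5 and with equal weights, 0 genes passed, 42 had an unadjusted p under 0.05 (6.79%, with 34 higher at 5.49% and 8 lower at 1.29%), and 40 of the 42 were among the 136 (6.46% of the tested genes). The sign of the difference was the same with and without those mice in 541 genes (87.4%). Groups without overlap then numbered 53 (8.56%), with 44 higher (7.11%) and 9 lower (1.45%). Leaving mice out can only keep or raise this count, so its rise says nothing about those mice.

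**Figure D1:**
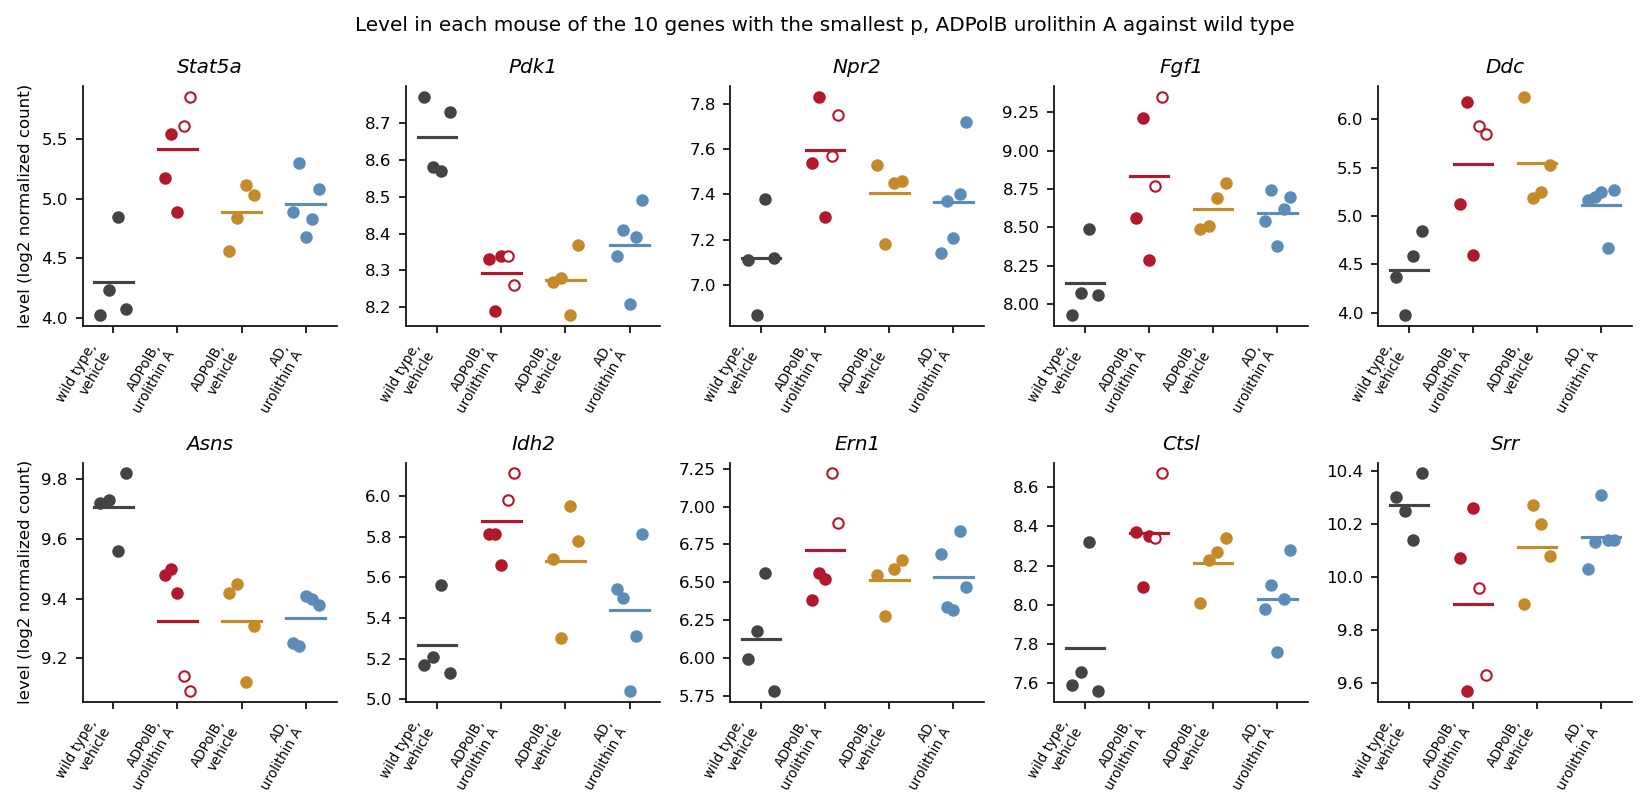
Levels (log2 normalized counts) of the 10 genes with the smallest p between treated ADPolB and wild-type mice, 1 point per mouse, beside vehicle ADPolB and treated AD mice, with a line at each group's mean and open symbols for treated ADPolB replicates 3 and 5. All 5 treated ADPolB mice lie on 1 side of the wild-type mean in each of the 10 genes, and the groups do not overlap in Stat5a, Pdk1, Asns and Idh2.

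The 10 genes with the smallest p all missed the threshold at an adjusted p of 0.157 (limma, Benjamini-Hochberg). In treated ADPolB mice 7 were higher and 3 lower. By function they covered cytokine and growth factor signalling (Stat5a, Fgf1), natriuretic peptide signalling (Npr2) and mitochondrial fuel use (Pdk1, Idh2). The others were genes of amino acid metabolism (Asns, Srr, Ddc), the stress sensor Ern1 and the cathepsin Ctsl.

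Stat5a encodes a transcription factor that cytokine and hormone receptors activate through JAK kinases. Its level was 4.03, 4.24, 4.85 and 4.08 in wild-type mice and 5.17, 4.89, 5.61, 5.54 and 5.85 in treated ADPolB mice. Every treated mouse was above every wild-type mouse, though replicate 2 exceeded wild-type replicate 3 by little. The difference was 1.11 (SE 0.268), a ratio of 2.16, and 0.90 without replicates 3 and 5. Counts were low: Stat5a had 16 to 30 inferred counts in wild-type mice and 21 to 69 in treated ADPolB mice.

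Fgf1, a growth factor of neurons and astrocytes, stood at 7.93, 8.07, 8.49 and 8.06 in wild-type mice and at 8.56, 8.29, 8.77, 9.21 and 9.35 in treated ADPolB mice. Wild-type replicate 3 and treated replicate 2 were the pair that overlapped. Fgf1 differed by 0.70 (SE 0.192), and by 0.55 without replicates 3 and 5. Npr2, the receptor of C-type natriuretic peptide, was at 7.11, 6.87, 7.38 and 7.12 in wild-type mice and at 7.54, 7.30, 7.57, 7.83 and 7.75 in treated ADPolB mice. The same pair of mice overlapped, and the difference was 0.48 (SE 0.128).

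Pdk1 encodes a kinase that inhibits the pyruvate dehydrogenase complex, the entry point of pyruvate into the TCA cycle. Its level was 8.77, 8.58, 8.57 and 8.73 in wild-type mice and 8.33, 8.34, 8.34, 8.19 and 8.26 in treated ADPolB mice. All treated mice were below all wild-type mice, in a range narrower than that of the wild-type mice. Pdk1 was lower by 0.37 (difference -0.37, SE 0.0949, ratio 0.774), and the value without replicates 3 and 5 was -0.38. Idh2, the mitochondrial NADP-dependent isocitrate dehydrogenase, was at 5.17, 5.21, 5.56 and 5.13 in wild-type mice and at 5.81, 5.66, 5.98, 5.81 and 6.11 in treated ADPolB mice. These groups did not overlap either, and Idh2 differed by 0.61 (SE 0.177), or by 0.49 without replicates 3 and 5. Idh2 had 33 to 49 inferred counts in wild-type mice and 25 to 83 in treated ADPolB mice, lowest in replicates 3 and 5.

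Asns makes asparagine from aspartate and glutamine and is induced by the transcription factor ATF4 when amino acids are short. Wild-type mice had 9.72, 9.73, 9.56 and 9.82, and treated ADPolB mice had 9.48, 9.42, 9.14, 9.50 and 9.09. The groups did not overlap, and the low-depth replicates 3 and 5 were the lowest. The difference was -0.38 (SE 0.11), and -0.24 without those mice, which is smaller by more than 1.5 times. Atf4 itself was at 10.17, 10.25, 10.37 and 10.22 in wild-type mice and at 10.39, 9.99, 9.82, 10.06 and 9.93 in treated ADPolB mice, where replicate 1 was the highest of all 9 mice. Its difference was -0.21 (SE 0.0983, adjusted p = 0.221, limma), and -0.11 without replicates 3 and 5.

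The Asns promoter is printed because Asns was among the 6 genes that separated the groups downwards and because its response to ATF4 runs through a short composite site near the start of transcription. The window is RefSeq's, 250 bases before to 50 after the start, on GRCm38.p6 at chr6:7693160-7693459, minus strand. Capitals mark the match to the motif TGATGNAAN, which was searched on both strands.
Asns: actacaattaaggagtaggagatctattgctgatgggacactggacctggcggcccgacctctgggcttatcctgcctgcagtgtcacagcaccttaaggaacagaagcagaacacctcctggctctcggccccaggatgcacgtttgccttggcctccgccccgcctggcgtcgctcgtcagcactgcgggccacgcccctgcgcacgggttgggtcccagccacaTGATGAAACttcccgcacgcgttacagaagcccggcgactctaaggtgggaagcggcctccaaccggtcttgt
The 1 match, TGATGAAAC, began 23 bases before the start. The motif was present in 1299 of 32851 promoter windows of this length (3.95%), in 17 of 625 windows of tested genes (2.72%), and in 3 of the 10 windows of the tested amino acid stress genes, which were those of Asns, Pycr1 and Slc7a11. Psat1 had 2 of these windows, so they were not 1 per gene. A match describes letters in the window and does not show that a factor binds there. Of the 10 tested genes of the amino acid stress list, 8 were above 0 and 2 below, with a median of 0.22 that was -0.02 after quantile normalization, and Psat1, of serine synthesis, was at 0.40 (SE 0.204).

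Srr and Ddc act on amino acid signals, Srr by making D-serine, a co-agonist of the NMDA receptor, and Ddc by making dopamine and serotonin. Srr stood at 10.30, 10.25, 10.14 and 10.39 in wild-type mice and at 10.07, 10.26, 9.96, 9.57 and 9.63 in treated ADPolB mice, and only replicate 2 of the treated mice reached the wild-type range. The difference was -0.37 (SE 0.11). Ddc was at 4.37, 3.98, 4.59 and 4.84 in wild-type mice and at 5.12, 4.60, 5.93, 6.18 and 5.85 in treated ADPolB mice, with replicate 2 again inside the wild-type range. Ddc differed by 1.09 (SE 0.306), on 20 to 27 inferred counts in wild-type mice and 21 to 107 in treated ADPolB mice.

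Ern1 encodes IRE1, a sensor of unfolded protein in the endoplasmic reticulum, and Ctsl a lysosomal protease. Ern1 was at 5.99, 6.18, 6.56 and 5.78 in wild-type mice and at 6.38, 6.52, 7.22, 6.56 and 6.89 in treated ADPolB mice. Its difference of 0.59 (SE 0.172) was 0.36 without replicates 3 and 5, which had the highest levels. Ctsl was at 7.59, 7.66, 8.32 and 7.56 in wild-type mice and at 8.37, 8.35, 8.34, 8.09 and 8.67 in treated ADPolB mice. Wild-type replicate 3 alone reached the treated range, and the difference was 0.58 (SE 0.171), or 0.76 without that mouse.

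The size and sign of differences went with expression level and with depth. When the tested genes were divided into 4 equal bins by mean level over the 23 mice, the median difference from wild type was 0.51 in the lowest bin (levels of 3.31 to 5.55), 0.18 and 0.05 in the middle bins, and -0.06 in the highest bin. In the lowest bin 142 of 155 genes were above 0. Stat5a, Ddc and Idh2, with differences of 1.11, 1.09 and 0.61, lay in that bin. The part of level and depth in their differences was not tested. The medians of single treated mice in that bin were 0.81 and 1.00 for the low-depth replicates 3 and 5, against 0.31, 0.30 and 0.18 for replicates 1, 2 and 4. Without replicates 3 and 5 the median of the lowest bin was 0.28 and that of the highest was -0.04. The 129 genes below the filter had medians of 3.83 and 4.05 in replicates 3 and 5, against 3.02 to 3.34 in the other treated mice and 2.83 to 3.26 in wild-type mice.

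**Figure D2:**
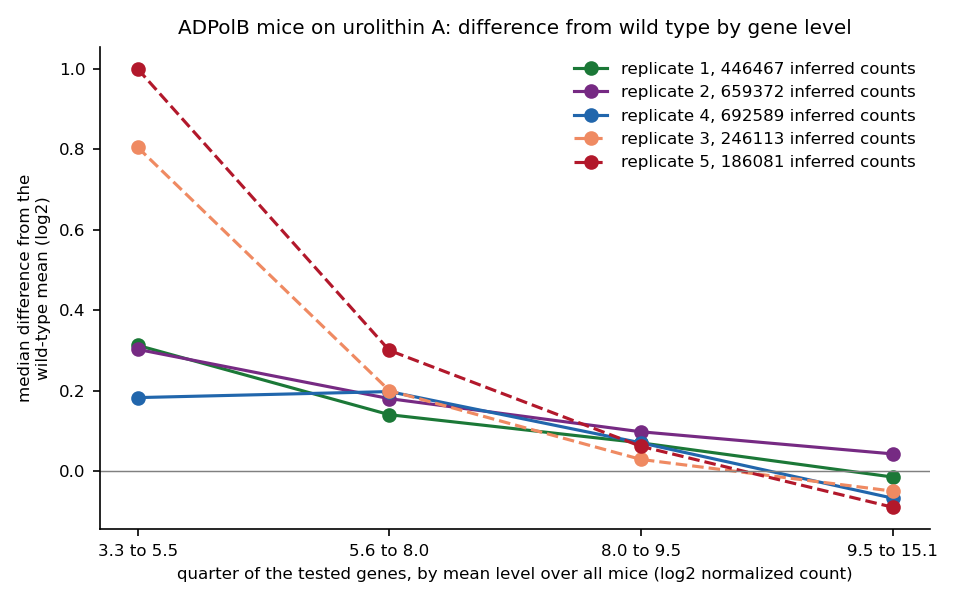
Median difference from the wild-type mean (log2) in 4 equal bins of the 619 tested genes by mean level, 1 line per treated ADPolB mouse, dashed for the low-depth replicates 3 and 5. In the lowest bin those 2 mice reach 0.81 and 1.00, while replicates 1, 2 and 4 lie between 0.18 and 0.31, and in the highest bin all 5 mice lie between -0.09 and 0.04.

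Across all tested genes, 411 of 619 were above 0 (66.4%, and 65.4% without replicates 3 and 5) with a median of 0.11. This median was -0.01 after centring each mouse on its median, -0.06 after quantile normalization and 0.13 after centring on Hprt, Gapdh, Rplp0 and Ywhaz. These 4 genes are often used as references. Ywhaz, however, was itself called lower in treated ADPolB mice without wild-type replicate 3 (-0.38) and without treated replicate 2 (-0.37). The part of Ywhaz in the values after centring on the 4 genes was not tested. The split of the genes at an unadjusted p under 0.05 moved with the scaling, from 106 higher and 30 lower as deposited to 64 and 79 after median centring, 45 and 70 after quantile normalization, and 114 and 23 after centring on the 4 genes. Gene groups are therefore set against the median of all tested genes. That median takes no account of expression level: 142 of 155 genes were above 0 in the lowest bin and 57 of 155 in the highest. The lists were not matched for level, so the share of a list above 0 also goes with the level of its members. No member of any of the 28 lists passed the adjusted threshold (0%), so the counts below are directions of estimates, not changes.

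**Figure D3:**
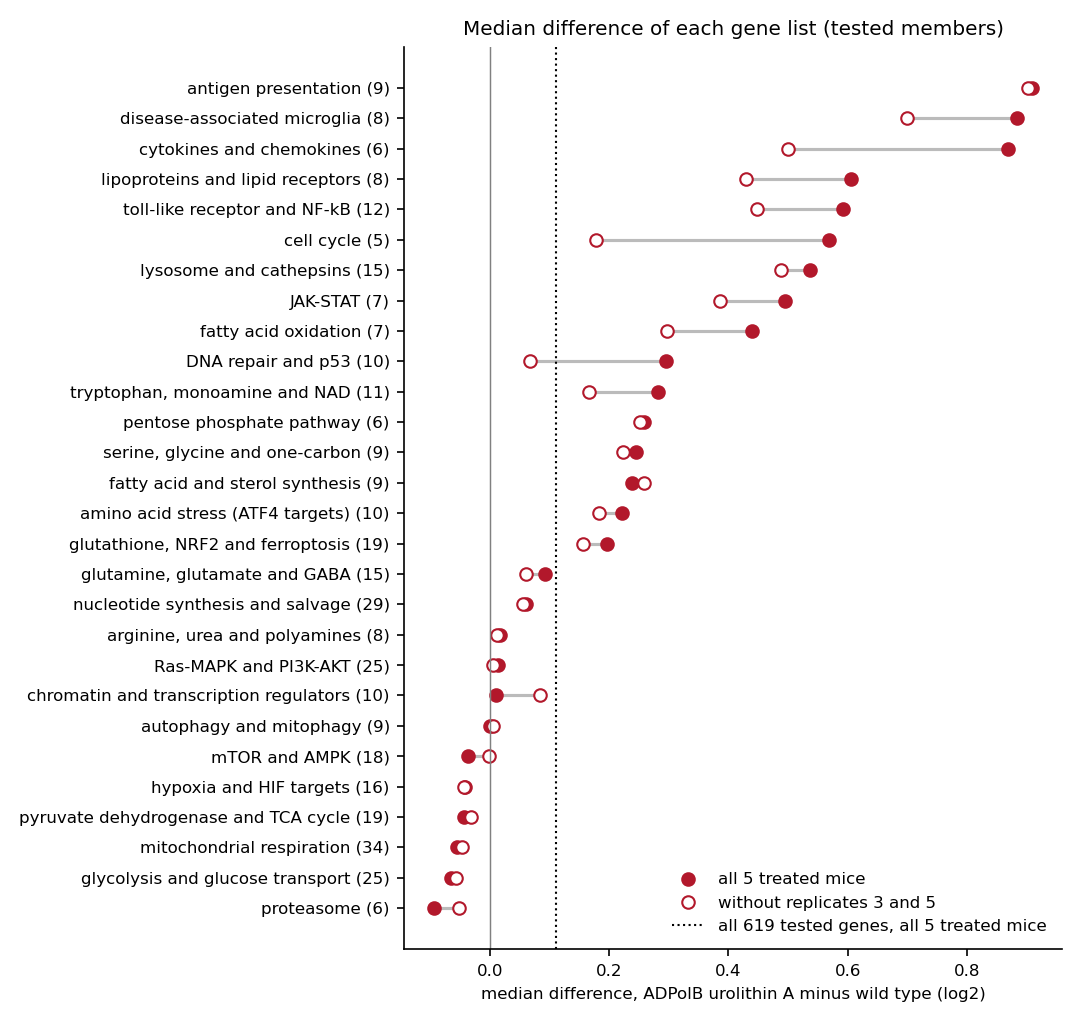
Median difference between treated ADPolB and wild-type mice (log2) over the tested genes of each of 28 lists, with the number of genes in brackets, filled circles for all 5 treated mice, open circles without replicates 3 and 5, and a dotted line at the median of all 619 tested genes (0.11). Antigen presentation (0.91), disease-associated microglia (0.88) and cytokines (0.87) have the highest medians and the proteasome (-0.09) the lowest, and the cell cycle (0.57 to 0.18) and cytokines (0.87 to 0.50) move most without those mice.

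In energy metabolism, genes of mitochondrial respiration and of glycolysis lay slightly below 0. Of 34 tested respiration genes, 11 were above and 23 below 0, with a median of -0.05. Cox5b, a subunit of cytochrome c oxidase, was at -0.18 (SE 0.0553), Atp5k, of ATP synthase, at -0.20 (SE 0.0682), and Sdhc, of succinate dehydrogenase, at 0.19 (SE 0.076). The pyruvate dehydrogenase and TCA cycle list (19 genes, 8 above 0) had a median of -0.04, glycolysis and glucose transport (25 genes, 10 above 0) one of -0.07, and the proteasome (6 genes, none above 0) one of -0.09. After centring on medians these 4 were at -0.17, -0.16, -0.18 and -0.21.

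Single genes lay further from 0. Ldha, which interconverts pyruvate and lactate, was at 11.51, 11.56, 11.41 and 11.70 in wild-type mice and at 11.33, 11.56, 11.13, 10.95 and 10.71 in treated ADPolB mice, a difference of -0.41 (SE 0.144). Treated replicate 2 lay inside the wild-type range, and the low-depth replicates 3 and 5 were among the lower mice, with a difference of -0.27 without them. Slc16a8, a lactate carrier that is also a choroid plexus marker here, was at 1.57 (SE 0.555) and at 0.94 without those mice.

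In the pentose phosphate pathway, which supplies NADPH, 5 of 6 tested genes, Tkt among them, were above 0. Pgd, 6-phosphogluconate dehydrogenase, was at 8.04, 7.92, 8.07 and 7.95 in wild-type mice and at 8.15, 8.37, 8.26, 8.25 and 8.27 in treated ADPolB mice. The groups did not overlap, and the difference was 0.27 (SE 0.0789). Taldo1, transaldolase, was at 0.26 (SE 0.154). Tkt, transketolase, was listed at 0 in wild-type replicate 1 and at 10.38, 10.56 and 10.41 in the other wild-type mice, against 10.52 to 10.92 in treated ADPolB mice, so no mean or difference is given for it.

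Genes of lipid handling were mostly above 0. All 8 tested genes of the lipoprotein and lipid receptor list were above 0 (7 of 8 without replicates 3 and 5), with a median of 0.61, of 0.43 without replicates 3 and 5 and of 0.17 after quantile normalization. Apoe, whose protein carries lipid between brain cells, was at 12.74, 12.74, 13.15 and 12.77 in wild-type mice and at 13.29, 13.72, 13.76, 13.31 and 13.67 in treated ADPolB mice. The groups did not overlap, the nearest wild-type mouse was replicate 3, and the difference was 0.70 (SE 0.265, adjusted p = 0.177, limma). Fabp5, a fatty acid binding protein, was at 0.34 (SE 0.14) without overlap. Lepr, the leptin receptor, was at 1.47 (SE 0.492) and ranged from 4.98 to 7.38 in wild-type mice, with replicate 3 the highest.

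Fatty acid synthesis and oxidation leaned the same way. Of 9 tested synthesis genes, 7 were above 0, with a median of 0.24. In 3 of them the groups did not overlap with treated ADPolB mice higher, and in 1 with treated ADPolB mice lower. Srebf1, the transcription factor that drives fatty acid synthesis, was at 8.02, 8.05, 8.03 and 7.40 in wild-type mice and at 8.12, 8.55, 8.37, 8.71 and 8.80 in treated ADPolB mice. It separated the groups at a difference of 0.64 (SE 0.229), with wild-type replicate 4 far below the other wild-type mice. Acacb, which makes the malonyl-CoA that restrains fatty acid oxidation, was at 1.25 (SE 0.409), and Scd1, a desaturase, at 0.66 (SE 0.254). Of 7 tested oxidation genes, 6 were above 0, with a median of 0.44 and of 0.30 without replicates 3 and 5. Echs1, enoyl-CoA hydratase, separated the groups at 0.27 (SE 0.087), and Hadh was at 0.44 (SE 0.186) and Cpt1a, the carnitine transferase of the outer membrane, at 0.66 (SE 0.31).

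Lysosomal genes were all above 0, in 15 of 15 tested (13 of 15 without replicates 3 and 5), with a median of 0.54, of 0.49 without those mice and of 0.29 after quantile normalization. Cd63, a lysosomal membrane protein, was at 10.38, 10.37, 11.60 and 10.37 in wild-type mice and at 11.72, 11.33, 11.59, 11.32 and 12.01 in treated ADPolB mice. The 3 other wild-type mice agreed within 0.01 and replicate 3 lay inside the treated range, so the difference of 0.91 (SE 0.34) was 1.22 without that mouse. Ctsz, a cathepsin, was at 8.32, 8.19, 9.55 and 8.41 in wild-type mice and at 9.30, 9.71, 9.78, 9.12 and 9.98 in treated ADPolB mice, with the same mouse high, and its difference was 0.96 (SE 0.398).

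Autophagy genes, which bear on the known action of urolithin A, showed no common direction. Of 9 tested, 5 were above 0 with a median of 0.0005, and the value after median centring was -0.12. Fnip2, a partner of folliculin at the lysosome, separated the groups at 0.53 (SE 0.18), with 6.87, 6.94, 7.00 and 6.82 in wild-type mice and 7.29, 7.56, 7.37, 7.53 and 7.42 in treated ADPolB mice. The autophagy receptor gene Sqstm1 was at -0.07 (SE 0.0612) and Atg101, of the initiation complex, at -0.13 (SE 0.118). The value of Atg101 was -0.07 without replicates 3 and 5 and -0.05 without replicate 5 alone, and that of Sqstm1 was -0.02 without wild-type replicate 4. Of 18 mTOR and AMPK genes, 6 were above 0, with a median of -0.04, and Stk11 was at 0.14 (SE 0.0945), Prkaa1 at 0.13 (SE 0.0939) and Rictor at -0.10 (SE 0.0696). Without replicates 3 and 5, Stk11 was at 0.09 and Rictor at -0.04, and Prkaa1 was at 0.05 without treated replicate 4.

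The antigen presentation, disease-associated microglia and cytokine lists had the 3 highest medians as deposited. All 8 tested genes of the disease-associated microglia list were above 0 (median 0.88, and 0.70 without replicates 3 and 5), as were all 12 of the toll-like receptor and NF-kB list (0.59 and 0.45) and all 7 of the JAK-STAT list (0.50 and 0.39). Cd14, a co-receptor for bacterial products, was at 4.74, 4.57, 5.33 and 4.89 in wild-type mice and at 5.98, 6.20, 6.27, 5.34 and 6.99 in treated ADPolB mice. It separated the groups by 0.01 between wild-type replicate 3 and treated replicate 4, and differed by 1.27 (SE 0.436). Nfkb1 was at 0.57 (SE 0.193) and Nfkb2 at 0.81 (SE 0.33), both without overlap, and Stat6 was at 0.64 (SE 0.28).

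Antigen presentation split within its list: 6 of 9 tested genes were above 0 and 3 below, with a median of 0.91 and of 0.27 after quantile normalization. The class I gene H2-D1 was at 8.20, 8.38, 9.77 and 8.97 in wild-type mice and at 9.07, 10.60, 10.87, 9.87 and 10.40 in treated ADPolB mice, a difference of 1.33 (SE 0.494), and H2-K1 was at 1.21 (SE 0.447). The class II gene H2-Eb1 was at 4.24, 4.30, 6.70 and 5.51 in wild-type mice and at 5.81, 8.40, 6.86, 5.52 and 6.63 in treated ADPolB mice. Wild-type replicate 3 was inside the treated range and treated replicate 2 was the highest. H2-Eb1 differed by 1.46 (SE 0.573, adjusted p = 0.192) and H2-Aa by 1.55 (SE 0.741). All 6 tested cytokine genes were above 0 (5 of 6 without replicates 3 and 5), with a median of 0.87, of 0.50 without those mice and of 0.40 after quantile normalization. Ccl2 was at 1.08 (SE 0.563), Tnf at 0.87 (SE 0.555) and Ccl4 at 0.87 (SE 0.557). Tnf was at 0.29 without replicates 3 and 5, and also at 0.29 without wild-type replicate 2. Ccl4 was at 0.51 without replicates 3 and 5 and at 0.56 without wild-type replicate 1.

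In the DNA repair and p53 list, the list nearest to the function of Polb, all 10 tested genes were above 0 (7 of 10 without replicates 3 and 5), but the median of 0.30 was 0.07 without those mice and -0.16 after quantile normalization. Trp53 was at 5.99, 6.37, 6.37 and 6.29 in wild-type mice and at 6.54, 6.46, 6.70, 6.51 and 7.05 in treated ADPolB mice. The groups did not overlap, and the difference of 0.40 (SE 0.176) was 0.25 without replicates 3 and 5. Rad51ap1, of homologous recombination, was at 0.73 (SE 0.23). Pole, a replicative polymerase, was at 0.59 (SE 0.294) and at 0.04 without replicates 3 and 5, with levels of 5.27 and 5.78 in those mice and of 4.03 to 4.24 in the other treated mice. Among 5 cell cycle genes the median moved likewise, from 0.57 to 0.18, with Cdc20 at 1.16 (SE 0.444) and at 0.54 without those mice.

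Oxidative stress genes of the glutathione and NRF2 list were above 0 in 16 of 19 (median 0.20). Nqo1, a quinone reductase, was at 5.45, 5.39, 6.88 and 5.70 in wild-type mice and at 7.11, 6.21, 6.96, 6.72 and 7.78 in treated ADPolB mice, a difference of 1.10 (SE 0.343), with wild-type replicate 3 inside the treated range. Sod3 was at 1.09 (SE 0.446), or 0.67 without wild-type replicate 4, and Hmox1 at 0.77 (SE 0.336). The hypoxia list was centred near 0 (6 of 16 above, median -0.04).

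Growth signalling and regulators of transcription had medians near 0. Of 25 Ras-MAPK and PI3K-AKT genes, 13 were above 0 (median 0.01). Hras, a small GTPase of this pathway, was at -0.23 (SE 0.104), and Sos2, which loads Ras with GTP, at 0.28 (SE 0.12). Smad3, which carries TGF-beta signals, was at -0.52 (SE 0.189) and at -0.27 without replicates 3 and 5. The remaining lists had medians of 0.28 for tryptophan, monoamine and NAD (11 of 11 above 0, and -0.05 after quantile normalization), 0.25 for serine, glycine and one-carbon (8 of 9), 0.09 for glutamine, glutamate and GABA (11 of 15), 0.06 for nucleotides (19 of 29), 0.02 for arginine, urea and polyamines (4 of 8) and 0.01 for chromatin regulators (5 of 10).

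Mapt separated the groups, at 9.74, 9.85, 9.76 and 9.85 in wild-type mice and 10.49, 10.43, 10.44, 10.08 and 10.09 in treated ADPolB mice, a difference of 0.51 (SE 0.155, adjusted p = 0.157, limma). It encodes tau, and treated ADPolB mice carry a human tau transgene. Whether the probe also counts human tau RNA was not tested. Mapt was at 0.53 without replicates 3 and 5.

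Markers of cell types were set beside these values, because in bulk tissue more cells of a type and more RNA per cell cannot be told apart. Few markers of brain cells had values: 3 of 12 for neurons (Gad1, Nat8l and Mapt), 1 of 10 for astrocytes (Glul) and 1 of 9 for oligodendrocytes (Aspa). None of these was at 0. They mark cell types and not a brain region, so they cannot check the hippocampus label. The neuron sum includes Mapt, whose probe was not tested for human tau RNA. Neuron markers summed to 12.27 to 12.49 in wild-type mice and 12.42 to 12.77 in treated ADPolB mice, and Glul was at 13.44 to 13.65 and 13.48 to 13.71. Microglia and macrophage markers (5 of 14, among them Itgam, Cd68, Ptprc and Ctss) summed to 11.68 to 12.40 in wild-type mice, where replicate 3 was the highest, and to 12.26 to 13.14 in treated ADPolB mice. Aspa was at 7.52 to 8.98 and 8.21 to 10.13, and vessel wall markers (5 of 11) summed to 8.55 to 8.94 and 8.77 to 9.20.

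**Figure D4:**
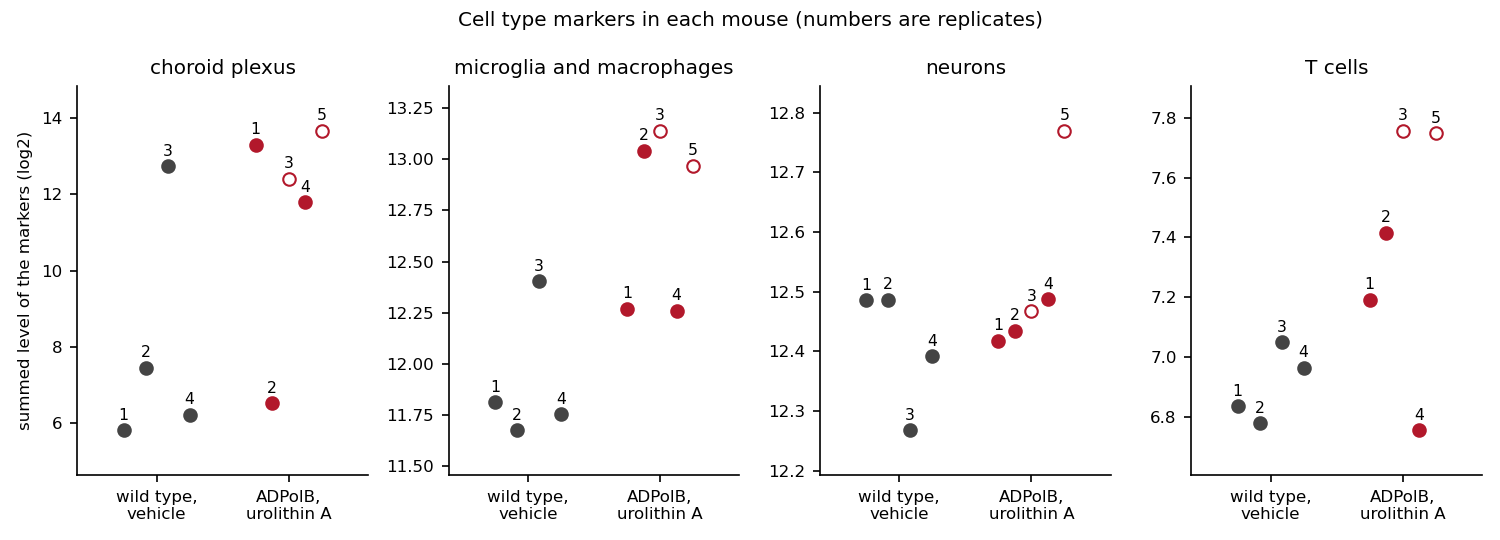
Summed level of markers of choroid plexus, microglia and macrophages, neurons and T cells (log2 normalized counts) in each wild-type and treated ADPolB mouse, with numbers for the replicates and open symbols for treated replicates 3 and 5. Choroid plexus genes are high in wild-type replicate 3 (12.73) and low in treated replicate 2 (6.52), and microglia markers run from 11.68 to 12.40 in wild-type mice and from 12.26 to 13.14 in treated ADPolB mice.

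The choroid plexus is the epithelium of the ventricles next to the hippocampus. Ttr, which it makes in large amounts, was at 4.95, 7.15, 12.62 and 5.47 in wild-type mice and at 13.20, 5.85, 12.27, 11.64 and 13.55 in treated ADPolB mice. The difference was 3.75 (SE 1.99), and Folr1 differed by 2.77 (SE 1.30). Only 3 of 9 markers had values, and none was at 0 in any mouse. With the Ttr level as a covariate, 0 genes passed and 67 had an unadjusted p under 0.05, against 136 without it. Stat5a was then at 0.88, against 1.11. Values that moved by more than 1.5 times with that covariate included those of Cpt1a (0.66 to 0.20), Hadh (0.44 to 0.28), Acacb (1.25 to 0.67) and Lepr (1.47 to 0.76) in lipid metabolism. They also included those of Cd63 (0.91 to 0.55), Nqo1 (1.10 to 0.64), Sod3 (1.09 to 0.52), Tnf (0.87 to 0.54), Ccl4 (0.87 to 0.50) and Hras (-0.23 to -0.14). The part of choroid plexus, microglia and vessel RNA in the differences was not tested otherwise.

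Lymphocyte markers were low in most mice. T cell markers (8 of 10) summed to 6.78 to 7.05 in wild-type mice and 6.76 to 7.76 in treated ADPolB mice. The B cell marker Ms4a1 did not reach the filter and was at 8.09 in treated replicate 2, against 2.67 to 4.83 in the other 8 mice. The same mouse had the highest H2-Eb1 and H2-Aa, and the part of B cells in those levels was not tested.

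Vehicle ADPolB and treated AD mice were set against the same wild-type mice, so these differences share controls and are given side by side without a test between them. Stat5a differed from wild type by 1.11 in treated ADPolB, 0.59 in vehicle ADPolB and 0.66 in treated AD mice. For Pdk1 the values were -0.37, -0.39 and -0.29, for Asns -0.38, -0.38 and -0.37, and for Ddc 1.09, 1.11 and 0.67. Mapt stood at 0.51, 0.36 and 0.49. Idh2 stood at 0.61, 0.41 and 0.17. Apart from Mapt, these genes were picked for a small p in treated ADPolB mice. That choice favours large differences in treated ADPolB mice over those of the groups set beside them. At an unadjusted p under 0.05 there were 81 genes in vehicle ADPolB (13.1%, 62 higher at 10% and 19 lower at 3.07%) and 57 in treated AD mice (9.21%, 52 higher at 8.4% and 5 lower at 0.808%) against wild type, and 0 passed adjustment in either. The count in treated ADPolB mice was 136 (22%), but 42 (6.79%) without the low-depth replicates 3 and 5. These counts therefore do not rank the groups by their distance from wild type.

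**Figure D5:**
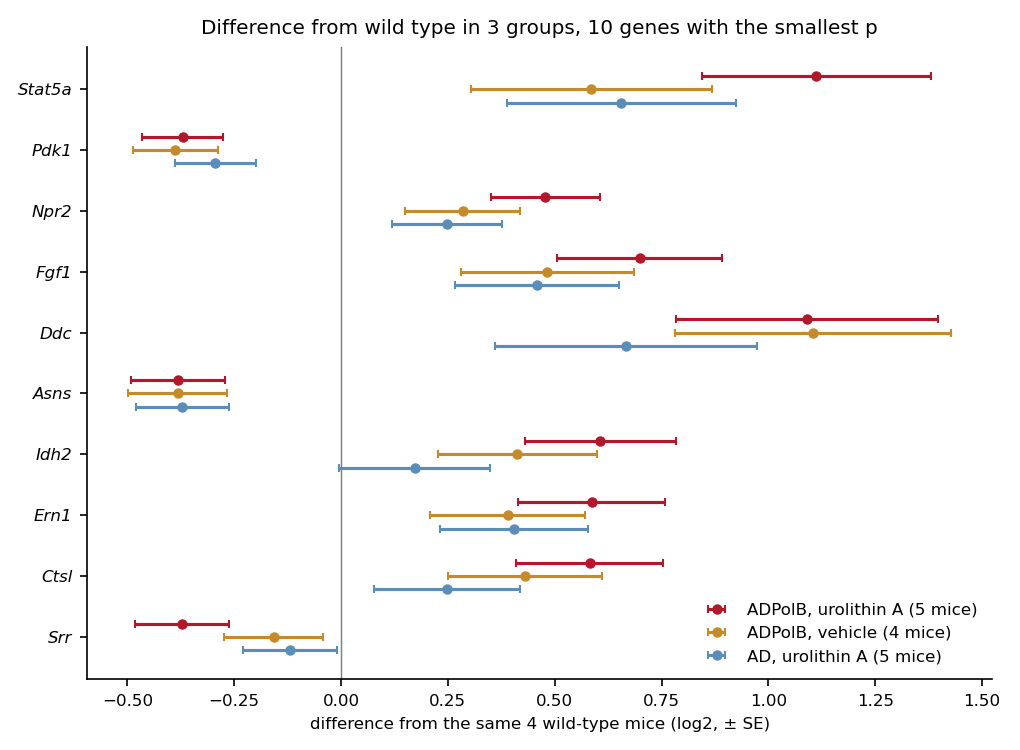
Difference from wild type (log2, with standard error) of the 10 genes with the smallest p in treated ADPolB mice, beside vehicle ADPolB and treated AD mice against the same 4 wild-type mice. Pdk1 and Asns lie close together in the 3 groups, between -0.29 and -0.39, and Stat5a lies at 1.11, 0.59 and 0.66. The choice of genes favours large differences in treated ADPolB mice.

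Direct comparisons asked where treated ADPolB mice differed from mice that shared their genotype or their treatment. Against vehicle ADPolB mice, 0 of 619 genes passed (0%, limma, smallest adjusted p 0.421), and 40 had an unadjusted p under 0.05 (6.46%), 15 higher (2.42%) and 25 lower (4.04%). Tecr, which completes the elongation of very long fatty acids, was at 11.98 ± 0.12 (SD, n = 5) against 11.77 ± 0.07 (n = 4), a difference of 0.21 (SE 0.0587). Ncor1, a co-repressor of nuclear receptors, was at 9.33 ± 0.11 against 9.59 ± 0.10, a difference of -0.26 (SE 0.0743). Intervals for the lead genes of the wild-type comparison included 0, from -0.18 to 0.21 for Pdk1, from -0.23 to 0.23 for Asns and from -0.03 to 1.08 for Stat5a.

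Against treated AD mice, which differ by the Polb allele, 0 genes passed (0%, smallest adjusted p 0.363) and 52 had an unadjusted p under 0.05 (8.4%), 13 higher (2.1%) and 39 lower (6.3%). Mapt was at a difference of 0.01 with an interval from -0.29 to 0.32, Pdk1 at -0.08 with an interval from -0.26 to 0.11, and Asns at -0.01 with an interval from -0.22 to 0.20. Idh2 was at 0.43 with an interval from 0.09 to 0.78 (adjusted p = 0.507, limma). The low-depth replicates 3 and 5 had the highest Idh2 levels of the treated ADPolB mice (5.98 and 6.11). Without them 0 genes passed in either direct comparison, and the smallest adjusted p was 0.996 in each (limma).

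Females and males were also compared, because both low-depth mice were female. The difference between treated ADPolB and wild-type mice was tested for a change with sex, and none did after adjustment (0 of 619, 0%, limma). An unadjusted p under 0.05 was reached by 15 genes (2.42%). Each arm held 2 or 3 mice, so intervals were wide. Wild-type replicate 3 and treated replicate 2, which stood apart in choroid plexus genes, were female as well. A difference between the sexes therefore cannot be told apart from depth or from the choroid plexus level of these mice. Stat5a differed from wild type by 0.99 in females and 1.22 in males, Pdk1 by -0.34 and -0.42, and Asns by -0.47 and -0.24.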

How the data were processed

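RNA from 5 mg of hippocampus was counted on an nCounter metabolic pathways panel from about 100 ng, per the labels' protocols, whose extraction text names the 3xTg tissues only. The authors deposited log2 normalized counts made with nCounter Advanced Analysis, per the series' design text. Background correction, reference genes and version are not given in the sources used here. In the table were 768 genes, 20 of them with no values. Within each mouse, at least 99.6% of low values lay at log2 of whole counts plus 1 constant (tolerance 0.0125, counts up to 40), which gave the inferred totals.

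Genes reaching a normalized count of 20 in at least 4 of 23 samples were tested with limma 3.58.1 in R 4.3.3 (1 mean per group over all 23 samples, eBayes with trend, two-sided), with Benjamini-Hochberg adjustment over 619 genes and a threshold of 0.05. Standard errors come from that fit, and SDs from the mice of a group. Named genes were the 10 smallest p against wild type, the 3 smallest in each direct comparison, the 3 smallest of each of 28 lists, and 12 genes fixed by name. Genes whose groups did not overlap, and those called after a mouse was left out, are named as well and were chosen after their values were seen. Members, lists and rules were chosen with earlier results of these data known. Several genes picked by these rules are not reported here. Promoters came from RefSeq (GRCm38.p6), and 747 of 748 symbols matched its gene table. Alternatives covered scaling, filter, covariates, the replicate block, weights, moderation and single mice. The fit was first tested on simulated data in which the changed genes were known. Figures and depth used Python 3.11.15 with matplotlib 3.10.9, pandas 2.3.3 and NumPy 2.4.6, and array weights used statmod 1.5.0.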

Additional observations from a re-analysis of the deposited data

Results flagged for a closer look

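Among 166 sets of values of named genes in 1 group of 4 or 5 mice, 16 held a mouse whose gap to its nearest neighbour exceeded Dixon's 95% critical value, where chance alone flags about 1 in 20. Wild-type replicate 3 accounted for 9 of them. It was above the other wild-type mice in Acacb (6.28 against 4.73 to 4.91), Apoe (13.15 against 12.74 to 12.77), Cd63 (11.6 against 10.37 to 10.38), Ctsl (8.32 against 7.56 to 7.66), Ctsz (9.55 against 8.19 to 8.41), Folr1 (8.83 against 3.69 to 4.47), Lepr (7.38 against 4.98 to 5.37), Nfkb2 (5.47 against 4.75 to 4.84) and Stat6 (6.8 against 5.96 to 6.05).

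Wild-type replicate 4 was low in Srebf1 (7.4 against 8.02 to 8.05) and high in Atp5k (12.13 against 11.93 to 11.96) and Psma3 (11.54 against 11.35 to 11.38). Treated ADPolB replicate 2 was low in Folr1 (4.03 against 8.24 to 9.69) and Ttr (5.85 against 11.64 to 13.55) and high in Ncor1 (9.52 against 9.24 to 9.31). Tkt was listed at 0 in wild-type replicate 1, against 10.38 to 10.56 in the other wild-type mice.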

How the results depend on the processing

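The count of 0 genes between treated ADPolB and wild-type mice was also 0 under the other scalings, filters, covariates and moderation, and became 182 with array weights and between 0 and 13 with 1 mouse left out. The 136 genes at an unadjusted p under 0.05 became 262 with array weights, 68 with the inferred total as a covariate, 67 with Ttr as a covariate (chosen after seeing the data, as was the centring on 4 genes), 42 without replicates 3 and 5, and between 69 and 181 with 1 mouse left out. The 35 genes without overlap (29 higher, 6 lower) became 40 after median centring (15 and 25), 30 after quantile normalization (9 and 21), 31 after centring on the 4 genes (22 and 9), 53 without replicates 3 and 5, and between 38 and 141 with 1 mouse left out. With fewer mice that count can only stay or rise. Against treated AD mice the count was 0 to 1 with 1 mouse left out. For the sex difference it was 1 after quantile normalization (Glul, -0.51) and 0 to 1 with 1 mouse left out, when Tkt was called through its value listed at 0. The array weights of that comparison stopped before convergence. Of the named genes' values, 2144 kept direction and side of the threshold, 83 passed it and 7 turned: Aoc2 to -0.23 and Nos2 to -0.14 and Glul to -0.27 after quantile normalization, Nos2 to -0.03 without replicates 3 and 5, Glul to -0.063 and Tecr to -0.007 after median centring, and Glul to -0.00052 with Ttr as a covariate. Except where fewer mice were fitted, the cause was not tested. With the replicate number as a block, 0 genes passed in each comparison and 108 had an unadjusted p under 0.05 against wild type. Same-numbered mice did not deviate together (correlations of 0.02, 0.156, 0.269 and -0.072), so the numbers were not taken as pairs. Centring on the panel's reference genes was not run, because the files do not say which they are. Counting depth limits genes near the filter, above all in treated replicates 3 and 5.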
